A study of Mus musculus with 12 samples.

Results

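Bile acids are made in hepatocytes from cholesterol, conjugated, pumped into bile, reabsorbed in the ileum and taken up again by the liver. The genes described here are 10 that serve this cycle in mouse liver, taken by symbol. They are *Cyp7a1* and *Cyp8b1* of the classic synthesis pathway, *Cyp27a1* and *Cyp7b1* of the alternative pathway, the conjugating enzyme *Baat*, the transporters *Slc10a1*, *Slc10a2* and *Abcb11*, and the nuclear receptors *Nr0b2* and *Nr1h4*. All 10 were found once among the 48795 genes of the deposited table, and all 10 were among the 13812 genes with enough counts to test. Liver RNA came from 12 female mice, 4 months old and kept on normal chow, which were littermates matched for age and sex. Of these, 3 per group carried the label NTS WT (wild-type for neurotensin, a gut peptide) or NTS KO (global knockout of it) and had free access to food or were fasted for 22 h. All 12 libraries carry the same batch label. The fed WT-labelled mice were numbers 254, 257 and 323 and the fasted ones 265, 282 and 322. The fed KO-labelled mice were 277, 303 and 319 and the fasted ones 284, 290 and 295, and mouse values are given below in these orders.

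Synthesis of bile acids is held in check by the bile acids themselves. In the textbook account, bile acids bind FXR (*Nr1h4*), FXR induces the bile salt export pump (*Abcb11*) and the small heterodimer partner SHP (*Nr0b2*), and SHP, which has no DNA-binding domain of its own, represses *Cyp7a1* and *Cyp8b1*. A second arm runs through a hormone of the ileum (FGF15 in mice) and its receptor FGFR4 on hepatocytes. *Cyp8b1* adds the hydroxyl group that makes cholic acid, so its level relative to the other enzymes bears on which bile acids are made.

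Each library held between 21999647 and 45273069 counts, and the deposited values are expected counts, that is, estimated reads per gene, rounded here to whole counts. Levels are given as TMM-normalized CPM, which are counts scaled to the library's total over the tested genes times its TMM factor from edgeR. Counts on *Nts* itself went against the genotype labels, with 0 counts in all 6 WT-labelled libraries, 46, 40 and 15 in the fed and 12, 4 and 18 in the fasted KO-labelled ones. Genotypes are therefore named here as labelled, and every direction between them is that of the labels. The tissue label was matched by its markers. The 6 hepatocyte markers summed to between 106173 and 139534 TMM-normalized CPM per mouse, while *Cdx1*, *Cdx2*, *Fabp6* and *Sis* of 10 intestinal markers had 0 counts in all 12 mice (3 counts, the limit that a count of 0 allows, are 0.0663 to 0.136 CPM). Of the other 6 intestinal markers, *Alpi*, *Muc2*, *Reg3b* and *Vil1* had at most 8 counts in any mouse, and the 2 tested, named after their values were seen, were *Lgals4* (1.16 to 15.9 CPM) and *Fabp2*, the intestinal fatty acid-binding protein. *Fabp2* had 41.2 to 95.1 CPM in fed and 106 to 141 in fasted WT-labelled mice, and 49.6 to 55.2 and 148 to 203 in KO-labelled mice. It was higher on fasting in both genotypes (log2 fold changes 0.97 and 1.83, edgeR adjusted *p* = 0.0165 and 0.000444), and *Lgals4* passed in neither. The sum of the 10 went from 43.1 to 96.8 CPM in fed to 112 to 148 in fasted WT-labelled mice and from 51.0 to 57.3 to 164 to 212 in KO-labelled mice, and its part in the changes of the bile acid genes was not tested. Libraries of the same group differed by more than sampling noise in every pair.

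Promoter sequence from RefSeq (build GRCm38.p6) was at hand for 7 of the 10 genes, namely *Abcb11*, *Cyp8b1*, *Cyp27a1*, *Nr0b2*, *Nr1h4*, *Slc10a1* and *Slc10a2*. *Cyp7a1*, *Cyp7b1* and *Baat* had no entry. The 250 bases before the start of 3 of them are shown, because *Abcb11* and *Cyp8b1* are the genes that changed most clearly and in opposite directions on fasting, and *Nr0b2* encodes the repressor of the loop. Capitals mark matches, on either strand, to 4 motifs chosen with these sequences known. They are the inverted repeat AGGNCANTGNCCT (the form bound by FXR with RXR), CAAGGNCA (the extended half-site bound by LRH-1, *Nr5a2*), CAAAGTCCA (a form bound by HNF4α) and GTAAANA (a form bound by forkhead factors). The windows are chr2:69342617-69342866 (minus strand) for *Abcb11*, chr9:121916306-121916555 (minus strand) for *Cyp8b1* and chr4:133553126-133553375 (plus strand) for *Nr0b2*, each ending at the base before the start of the transcript.
Abcb11: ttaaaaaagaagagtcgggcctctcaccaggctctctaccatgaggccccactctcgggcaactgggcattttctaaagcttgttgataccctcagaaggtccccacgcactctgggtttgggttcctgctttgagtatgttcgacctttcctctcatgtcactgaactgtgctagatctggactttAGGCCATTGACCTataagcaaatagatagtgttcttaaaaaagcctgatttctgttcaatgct
Cyp8b1: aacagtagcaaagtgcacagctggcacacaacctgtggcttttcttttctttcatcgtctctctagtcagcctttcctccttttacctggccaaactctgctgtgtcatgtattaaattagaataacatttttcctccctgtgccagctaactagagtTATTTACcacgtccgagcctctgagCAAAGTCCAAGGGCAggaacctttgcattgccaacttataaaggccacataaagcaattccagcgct
Nr0b2: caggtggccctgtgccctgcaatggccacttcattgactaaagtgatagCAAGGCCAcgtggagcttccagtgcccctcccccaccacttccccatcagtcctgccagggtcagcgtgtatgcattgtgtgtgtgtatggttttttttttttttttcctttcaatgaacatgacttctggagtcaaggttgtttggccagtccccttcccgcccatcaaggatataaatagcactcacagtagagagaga
The *Abcb11* window held the inverted repeat as AGGCCATTGACCT, starting 63 bases upstream of the transcript start. In all, 28 of 32817 promoter windows of the same length held this motif (0.0853%). The *Cyp8b1* window held CAAAGTCCA starting 67 bases upstream, a motif found in 0.384% of windows, and CAAGGGCA starting 60 bases upstream, which shares its first bases with the end of the former. It also held a forkhead match on the opposite strand, starting 92 bases upstream. The extended half-site was found in 5.53% and the forkhead motif in 10.9% of all windows. In the *Nr0b2* window the extended half-site stood as CAAGGCCA, 201 bases upstream. Of the windows not shown, those of *Nr1h4* and *Slc10a1* held a forkhead match and those of *Cyp27a1* and *Slc10a2* held none of the 4 motifs. A match describes the letters only.

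Among genes compared per length of their longest annotated transcript, *Slc10a1* had the highest mean in fed livers and *Cyp8b1* in fasted livers. In fed WT-labelled mice, *Slc10a1* had 284 ± 37.2 CPM per kilobase (SD, n = 3), and its mice lay above those of all others. In fed KO-labelled mice it had 280 ± 102 (SD, n = 3) and overlapped *Cyp8b1* (168 ± 67.8 CPM per kilobase, SD, n = 3). Next in fed WT-labelled mice came *Cyp27a1* (135 ± 4.93), *Abcb11* (133 ± 6.62), *Cyp8b1* (122 ± 63.0) and *Baat* (120 ± 17.9; SD, n = 3 for each, CPM per kilobase), and each of these overlapped its neighbour in the order. In the same mice *Nr1h4* had 38.4 ± 3.51, *Cyp7a1* 24.7 ± 19.6 and *Nr0b2* 12.7 ± 3.94 CPM per kilobase (SD, n = 3 for each). At the low end of this group were *Slc10a2* with 5.71 ± 2.02 and *Cyp7b1* with 3.62 ± 1.34 CPM per kilobase (SD, n = 3 for each), which overlapped. The place of *Cyp7b1* depends on its longest transcript, which has 11107 bases. By mean TMM-normalized CPM in the same mice, *Cyp7b1* (40.2) stood above *Nr0b2* (27.4) and *Slc10a2* (23.7). In fed KO-labelled mice *Cyp8b1* was followed by *Baat* (134 ± 8.48), *Abcb11* (131 ± 17.2), *Cyp27a1* (128 ± 28.3) and *Cyp7a1* (91.4 ± 113; SD, n = 3 for each, CPM per kilobase), which stood above *Nr1h4* (36.1 ± 5.67, SD, n = 3) by mean, and each of these overlapped its neighbour. After fasting, *Cyp8b1* reached 432 ± 34.9 CPM per kilobase in WT-labelled and 542 ± 76.4 in KO-labelled mice (SD, n = 3 for each). It overlapped *Slc10a1* (381 ± 31.6 CPM per kilobase, SD, n = 3) in the former and stood clear of it (360 ± 73.1 CPM per kilobase, SD, n = 3) in the latter.

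**Figure D1:**
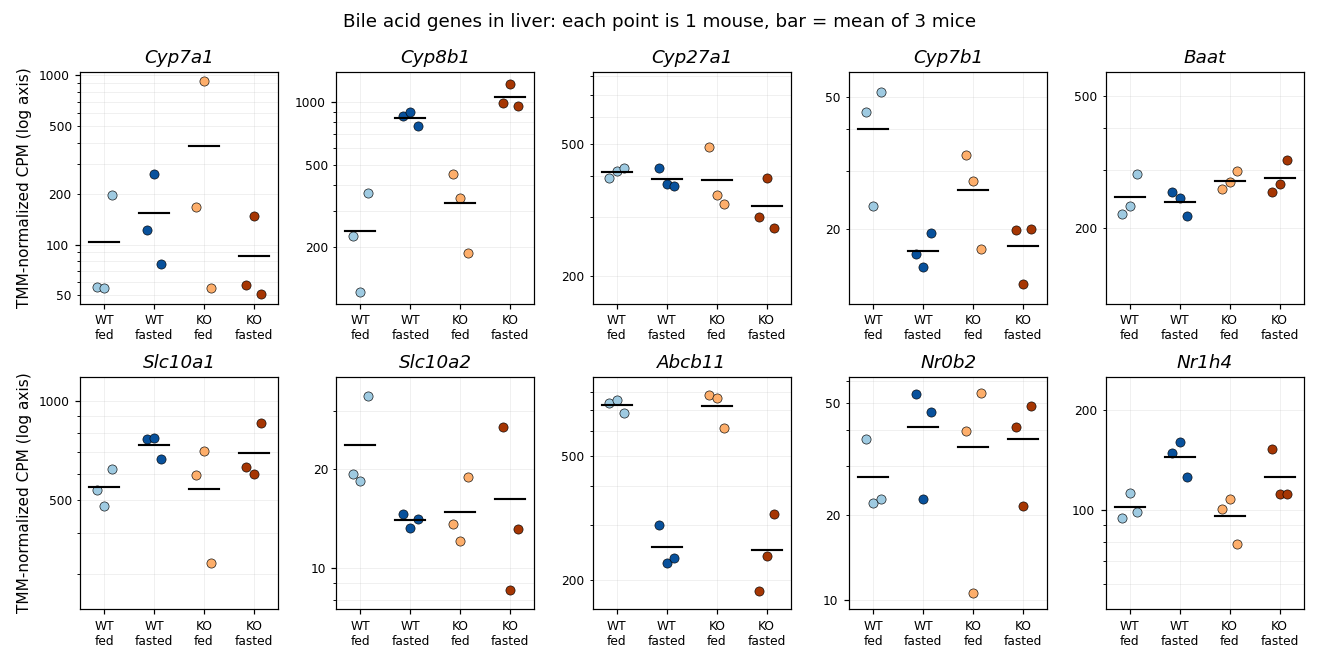
TMM-normalized CPM (log axes, spanning at least a 5-fold range) of the 10 bile acid genes, with 1 point per mouse and a bar at the mean of the 3 mice of each group. *Cyp8b1* was higher and *Abcb11* lower in all 6 fasted mice than in all 6 fed mice, whereas *Cyp7a1* ranged from 50.9 to 921 with the groups overlapping.

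The first question was how these genes answered to fasting in each genotype. In WT-labelled mice 4 of the 10 genes passed the test, with *Cyp8b1* and *Nr1h4* higher and *Abcb11* and *Cyp7b1* lower in fasted livers. In KO-labelled mice 2 passed it, *Cyp8b1* higher and *Abcb11* lower. The test was edgeR's quasi-likelihood test with Benjamini-Hochberg adjustment over all 13812 genes, and a gene passed at an adjusted *p* under 0.05. Of all tested genes, 18.1% passed in WT-labelled mice (8.91% higher and 9.19% lower) and 16.8% in KO-labelled mice (7.70% higher and 9.14% lower). The median absolute log2 fold change was 0.58 for the 10 genes against 0.30 for all tested genes in WT-labelled mice, and 0.37 against 0.29 in KO-labelled mice. Since these are whole livers, fewer cells of a type and less RNA per cell cannot be told apart for any of these changes.

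*Cyp8b1* (ENSMUSG00000050445, chromosome 9 from 121914356 to 121916305 in GRCm38) encodes sterol 12α-hydroxylase. In WT-labelled mice its TMM-normalized CPM was 227, 122 and 367 when fed and 857, 901 and 767 when fasted. In KO-labelled mice it was 450, 347 and 187 when fed and 987, 1227 and 954 when fasted. The lowest fasted mouse stood above the highest fed mouse in both genotypes. *Cyp8b1* was 3.53-fold higher after fasting in WT-labelled mice (log2 fold change 1.82, standard error 0.38, edgeR adjusted *p* = 0.00801) and 3.22-fold higher in KO-labelled mice (1.69, standard error 0.38, edgeR adjusted *p* = 0.0116). The spread between mice was wider when fed (coefficient of variation 51.5% in WT-labelled and 40.3% in KO-labelled mice) than when fasted (8.08% and 14.1%). *Cyp8b1* passed the test whichever mouse was left out.

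Sums of marker genes for liver zones and for other liver cells differed with fasting too. Beside the counts of markers that passed, 18.1% of all tested genes passed in WT-labelled and 16.8% in KO-labelled mice. The 6 pericentral markers summed to 7074 to 8967 TMM-normalized CPM in fed and 12223 to 15937 in fasted WT-labelled mice, with 2 of the 6 higher in the test. In KO-labelled mice they summed to 4331 to 7065 when fed and 14575 to 16767 when fasted, with 4 of the 6 higher. The 6 periportal markers summed to 2334 to 3345 and 3931 to 4458 in fed and fasted WT-labelled mice, with 0 of the 6 passing in edgeR, 0 in DESeq2 and 0 at an unadjusted *p* under 0.05. In KO-labelled mice the sums were 2018 to 3700 and 3706 to 5505, with 2 of the 6 lower in the test although the sum was higher. The zone sums rested largely on few genes. In WT-labelled mice *Cyp2e1* had 5198 to 6752 TMM-normalized CPM fed and 9470 to 11890 fasted. *Oat* had 687 to 856 and 1328 to 2975. *Slc1a2* was higher too, *Glul* and *Rhbg* overlapped, and *Lect2* was lower (109 to 135 and 60.0 to 104). *Pck1* had 896 to 1628 and 2339 to 3043, while the other periportal markers overlapped. The 6 markers of sinusoidal endothelium summed to 167 to 239 TMM-normalized CPM in fed and 142 to 158 in fasted WT-labelled mice (2 lower and 1 higher in the test), and to 184 to 207 and 136 to 164 in KO-labelled mice (1 lower). The 6 Kupffer cell markers summed to 408 to 483 in fed and 201 to 349 in fasted WT-labelled mice (1 lower), whereas in KO-labelled mice the sums of 250 to 349 and 261 to 404 overlapped, with 0 passing in edgeR, 1 in DESeq2 and 2 at an unadjusted *p* under 0.05. The 6 stellate cell markers summed to 385 to 472 and 355 to 389 in fed and fasted WT-labelled mice, with overlap (1 lower), and to 389 to 452 and 342 to 371 in KO-labelled mice (2 lower). No marker of these 5 lists was at 0 in any group. The part of these shifts in the changes of the bile acid genes was not tested.

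*Cyp7a1* (ENSMUSG00000028240, chromosome 4 from 6265612 to 6275633) encodes cholesterol 7α-hydroxylase, the rate-limiting enzyme of the classic pathway. It had 56.4, 55.1 and 197 TMM-normalized CPM in fed and 121, 261 and 77.0 in fasted WT-labelled mice. In KO-labelled mice it had 167, 921 and 55.6 when fed and 58.0, 148 and 50.9 when fasted. Mouse 303, fed and KO-labelled, stood far above every other mouse, and fed and fasted mice overlapped in both genotypes. The log2 fold change on fasting was 0.57 in WT-labelled mice (95% interval −1.78 to 2.92) and −2.16 in KO-labelled mice (95% interval −4.60 to 0.29), with edgeR adjusted *p* values of 0.745 and 0.209. The value in KO-labelled mice rested on mouse 303, without which it was −0.37 (edgeR adjusted *p* = 0.831). In fed KO-labelled mice the highest value was 16.6 times the lowest, whereas the same ratio was between 2.91 and 3.58 in the other 3 groups. *Cyp7a1* thus showed no change beyond the spread between mice. The intervals leave room for large changes, in either direction in WT-labelled mice and downward in KO-labelled mice.

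*Abcb11* (ENSMUSG00000027048, chromosome 2 from 69238282 to 69342616) encodes the bile salt export pump of the canalicular membrane, the main route of bile acids into bile. Fed WT-labelled mice had 739, 757 and 687 TMM-normalized CPM and fasted ones 302, 227 and 237. Fed KO-labelled mice had 784, 766 and 613 and fasted ones 185, 240 and 326. Every fasted mouse lay below every fed mouse. *Abcb11* was 2.85-fold lower after fasting in WT-labelled mice (log2 fold change −1.51, standard error 0.20, edgeR adjusted *p* = 0.000293) and 2.88-fold lower in KO-labelled mice (−1.53, standard error 0.20, edgeR adjusted *p* = 0.000206). With each mouse left out in turn, the log2 fold change stayed between −1.64 and −1.44 in WT-labelled and between −1.76 and −1.35 in KO-labelled mice, and the test was passed each time. The *Abcb11* window above holds the inverted repeat AGGCCATTGACCT, and any part of this motif in the fall was not tested.

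The receptor gene of the same loop was higher in fasted WT-labelled mice. *Nr1h4* (ENSMUSG00000047638, chromosome 10 from 89454234 to 89533585) had 94.5, 112 and 98.4 TMM-normalized CPM in fed and 148, 160 and 126 in fasted WT-labelled mice. In KO-labelled mice it had 101, 108 and 78.8 when fed and 152, 112 and 112 when fasted. Fed and fasted mice did not overlap in either genotype. *Nr1h4* was 1.42-fold higher after fasting in WT-labelled mice (log2 fold change 0.51, standard error 0.16, edgeR adjusted *p* = 0.0419), while the KO-labelled mice gave 0.39 (standard error 0.16, edgeR adjusted *p* = 0.114). The call in WT-labelled mice was lost with upper quartile normalization (adjusted *p* = 0.0614) and without mouse 254, 257, 323, 265 or 282, with edgeR adjusted *p* values between 0.0578 and 0.159, and without mouse 277 of the other genotype (0.0536).

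*Nr0b2* (ENSMUSG00000037583, chromosome 4 from 133553376 to 133556536), the gene for SHP and a known target of FXR, showed no change that exceeded its spread. It had 37.2, 22.1 and 22.9 TMM-normalized CPM in fed and 53.9, 22.8 and 46.4 in fasted WT-labelled mice. In KO-labelled mice it had 39.7, 10.6 and 54.2 when fed and 41.1, 21.6 and 48.8 when fasted. The groups overlapped throughout, and mouse 303, the mouse highest for *Cyp7a1*, was the lowest. The log2 fold change on fasting was 0.58 (95% interval −0.72 to 1.88) in WT-labelled and 0.097 (95% interval −1.19 to 1.39) in KO-labelled mice, with edgeR adjusted *p* values of 0.531 and 0.932.

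Of the alternative pathway, *Cyp7b1* was lower in fasted livers of WT-labelled mice and *Cyp27a1* was not shown to change. *Cyp7b1* (ENSMUSG00000039519, chromosome 3 from 18071950 to 18243338), the oxysterol 7α-hydroxylase, had 45.3, 23.5 and 52.0 TMM-normalized CPM in fed and 16.9, 15.4 and 19.4 in fasted WT-labelled mice. KO-labelled mice had 33.6, 28.0 and 17.4 when fed and 19.8, 13.7 and 20.1 when fasted. Fed and fasted mice overlapped in the KO-labelled mice only, through the low fed mouse 319. *Cyp7b1* was 2.33-fold lower after fasting in WT-labelled mice (log2 fold change −1.22, standard error 0.30, edgeR adjusted *p* = 0.0177), and KO-labelled mice gave −0.56 (standard error 0.30, edgeR adjusted *p* = 0.227). The call in WT-labelled mice was lost without mouse 254, 323, 265 or 282, with log2 fold changes between −1.19 and −0.99 and edgeR adjusted *p* values between 0.0511 and 0.0733. *Cyp27a1* (ENSMUSG00000026170, chromosome 1 from 74713574 to 74737892), the mitochondrial sterol 27-hydroxylase, lay between 278 and 487 TMM-normalized CPM in all 12 mice. Its log2 fold change on fasting was −0.066 (95% interval −0.43 to 0.30) in WT-labelled and −0.26 (95% interval −0.62 to 0.10) in KO-labelled mice.

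*Baat* (ENSMUSG00000039653, chromosome 4 from 49489422 to 49506557), which joins bile acids to taurine or glycine, varied least of the 10 genes over all 12 mice by the ratio of highest to lowest, between 218 and 321 TMM-normalized CPM. The log2 fold change on fasting was −0.050 (95% interval −0.35 to 0.25) in WT-labelled and 0.025 (95% interval −0.28 to 0.33) in KO-labelled mice, and these bounds leave out a change of 1.5-fold in either direction.

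Neither of the uptake transporters passed the test. *Slc10a1* (ENSMUSG00000021135, chromosome 12 from 80953185 to 80968079), the sodium-dependent transporter that takes conjugated bile acids up from blood (NTCP), had 538, 480 and 623 TMM-normalized CPM in fed and 767, 774 and 665 in fasted WT-labelled mice. KO-labelled mice had 596, 703 and 323 when fed and 630, 599 and 857 when fasted. The fed and fasted WT-labelled mice did not overlap, and mouse 319 was again the low one of its group. The log2 fold change was 0.43 (95% interval −0.085 to 0.94) in WT-labelled and 0.36 (95% interval −0.15 to 0.87) in KO-labelled mice, with edgeR adjusted *p* values of 0.236 and 0.324.

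*Slc10a2* (ENSMUSG00000023073, chromosome 8 from 5083219 to 5105351), known as the bile acid transporter of the ileum and of bile duct cells, was present in liver RNA at 8.57 to 33.4 TMM-normalized CPM (198 to 753 counts). Fed WT-labelled mice had 19.4, 18.4 and 33.4 and fasted ones 14.6, 13.3 and 14.2, without overlap. In KO-labelled mice the values were 13.6, 12.1 and 18.9 when fed and 26.9, 8.57 and 13.2 when fasted, with overlap. The log2 fold changes were −0.76 (95% interval −1.59 to 0.067, edgeR adjusted *p* = 0.189) and 0.12 (95% interval −0.70 to 0.95, edgeR adjusted *p* = 0.861). In WT-labelled mice it passed when the fit held only the 6 mice compared (−0.76, edgeR adjusted *p* = 0.0453). The 8 bile duct markers summed to 43.2 to 61.2 TMM-normalized CPM in fed and 29.9 to 35.8 in fasted WT-labelled mice, and to 43.4 to 47.3 and 26.9 to 39.9 in KO-labelled mice. Of the 4 that were tested, 1 was lower on fasting in WT-labelled mice, and 0 passed in KO-labelled mice in edgeR or DESeq2 (1 at an unadjusted *p* under 0.05). By edgeR, 18.1% and 16.8% of all tested genes passed. None of the 8 was at 0 in all mice, and *Sctr* was at 0 in the fed KO-labelled mice. Their part in the level of *Slc10a2* was not tested. *Fabp6*, the bile acid binding protein of the ileum, was among the intestinal markers with 0 counts.

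**Figure D2:**
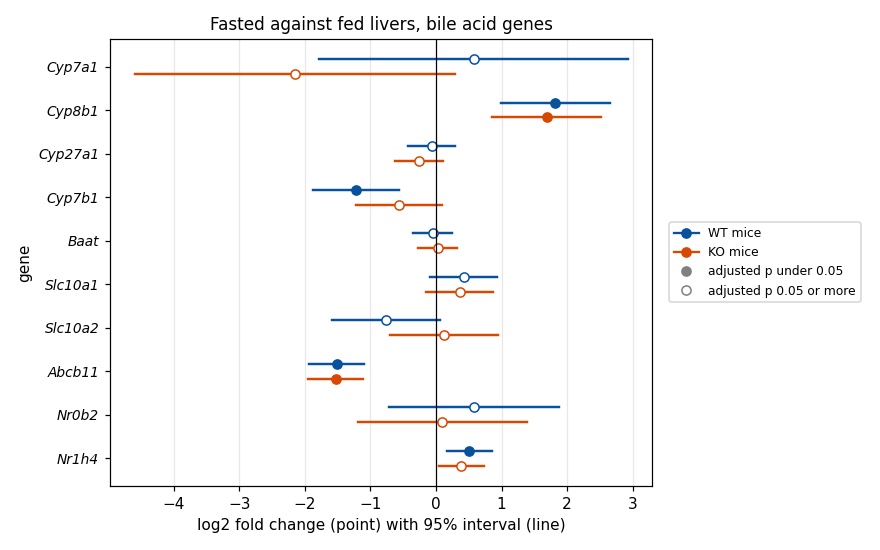
Log2 fold change (x axis) of fasted against fed livers for the 10 bile acid genes, with 95% intervals from edgeR. WT-labelled mice are blue, KO-labelled mice orange, and filled points have an adjusted *p* under 0.05. *Abcb11* (−1.51 and −1.53) and *Cyp8b1* (1.82 and 1.69) are filled in both genotypes, *Cyp7b1* and *Nr1h4* in WT-labelled mice.

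Where 1 fasting change was fitted for both genotypes, a model chosen after seeing the data, 4 of the 10 genes passed (2 higher and 2 lower) against 32.7% of all tested genes (15.9% higher and 16.8% lower). They were *Cyp8b1* (log2 fold change 1.75, standard error 0.25, edgeR adjusted *p* = 0.00025), *Abcb11* (−1.52, standard error 0.13, edgeR adjusted *p* = 1.84e-06), *Cyp7b1* (−0.89, standard error 0.23, edgeR adjusted *p* = 0.00981) and *Nr1h4* (0.45, standard error 0.11, edgeR adjusted *p* = 0.00627). *Slc10a1* gave 0.39 (standard error 0.16, edgeR adjusted *p* = 0.0758). For the 1 genotype difference of the same model, 0 of the 10 genes passed against 0.00724% of all tested genes (1 gene, which was higher in KO-labelled mice).

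Other genes of the same cycle were read from 3 lists. Of 14 further genes of synthesis and conjugation, 13 were tested, and 5 were higher and 1 lower on fasting in each genotype. Of all tested genes, 18.1% passed in WT-labelled and 16.8% in KO-labelled mice. *Acot8*, a peroxisomal thioesterase, rose by 1.07 on the log2 scale in WT-labelled and 1.34 in KO-labelled mice (edgeR adjusted *p* = 0.000189 and 4.02e-05). *Hsd17b4*, the D-bifunctional enzyme that shortens the bile acid side chain in peroxisomes, rose by 0.97 and 1.21 (edgeR adjusted *p* = 0.000352 and 7.11e-05). *Slc27a2*, a very long chain acyl-CoA synthetase, went from a mean of 959 to 2173 TMM-normalized CPM in WT-labelled mice and from 878 to 2393 in KO-labelled mice (log2 fold changes 1.18 and 1.45, edgeR adjusted *p* = 0.00113 and 0.000248). The other 2, named after their values were seen, were *Cyp39a1*, an oxysterol 7α-hydroxylase (log2 fold changes 1.48 and 1.66), and *Abcd3*, a peroxisomal transporter (0.77 and 0.72). The gene that fell was *Cyp2c70*, which makes the muricholic acids of mice. It had 480, 561 and 643 TMM-normalized CPM in fed and 74.8, 84.1 and 35.9 in fasted WT-labelled mice, and 557, 503 and 382 against 42.7, 64.4 and 33.2 in KO-labelled mice. The groups lay far apart, with *Cyp2c70* 8.65-fold lower after fasting in WT-labelled and 10.3-fold lower in KO-labelled mice (log2 fold changes −3.11 and −3.36, standard error 0.33 for each, edgeR adjusted *p* = 0.000158 and 8.12e-05). The median log2 fold change of the 13 genes was 0.34 and 0.43, against −0.0032 and −0.011 over all tested genes.

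Of 14 further transporters, 13 were tested. In WT-labelled mice 3 were higher and 1 lower on fasting, and in KO-labelled mice 5 were higher and 1 lower. The shares of all tested genes that passed were 18.1% and 16.8%. *Abcb4*, the canalicular phospholipid exporter, rose from a mean of 222 to 505 TMM-normalized CPM in WT-labelled and from 201 to 512 in KO-labelled mice (log2 fold changes 1.18 and 1.35, edgeR adjusted *p* = 0.000436 and 0.000144). *Slco1a4*, a basolateral organic anion transporter, rose by 1.71 and 1.81 on the log2 scale (edgeR adjusted *p* = 0.0064 and 0.00497). *Abcc3*, a basolateral efflux pump, rose by 0.69 and 0.66 (edgeR adjusted *p* = 0.00817 and 0.0108). *Abcg5* and *Abcg8*, which pair to form the sterol exporter, passed in KO-labelled mice (0.92 and 0.97, edgeR adjusted *p* = 0.00817 and 0.0103). In WT-labelled mice they gave 0.55 and 0.56 (edgeR adjusted *p* = 0.0774 and 0.0965), and the difference between the genotypes was not beyond the spread (0.38 and 0.41, edgeR adjusted *p* = 0.901 for both). *Abcg5* passed in WT-labelled mice too with only the groups compared (0.54) and without mouse 303 or 319 (0.55 each). *Abcg8* was named after its values were seen. *Atp8b1*, the canalicular phospholipid flippase, was lower in both genotypes (−0.54 and −0.70, edgeR adjusted *p* = 0.0293 and 0.00857), but its call in WT-labelled mice was lost without mouse 257, 265 or 322 (edgeR adjusted *p* between 0.0858 and 0.135) and with only the groups compared (0.0569). The median log2 fold change of the 13 transporters was 0.50 and 0.30.

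Of 12 further regulators, 10 were tested. On fasting 0 passed in either genotype by edgeR, against 18.1% and 16.8% of all tested genes. In WT-labelled and KO-labelled mice 1 and 2 of the 10 had an unadjusted *p* under 0.05. DESeq2 passed 0 and 1. *Fgfr4*, the hepatic receptor of the ileal hormone, had a log2 fold change of −0.24 (95% interval −0.56 to 0.074) in WT-labelled and −0.42 (95% interval −0.74 to −0.11, edgeR adjusted *p* = 0.0636) in KO-labelled mice, and it was named after its values were seen. The gene for that hormone, *Fgf15*, had 0 counts in all 12 mice.

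**Figure D3:**
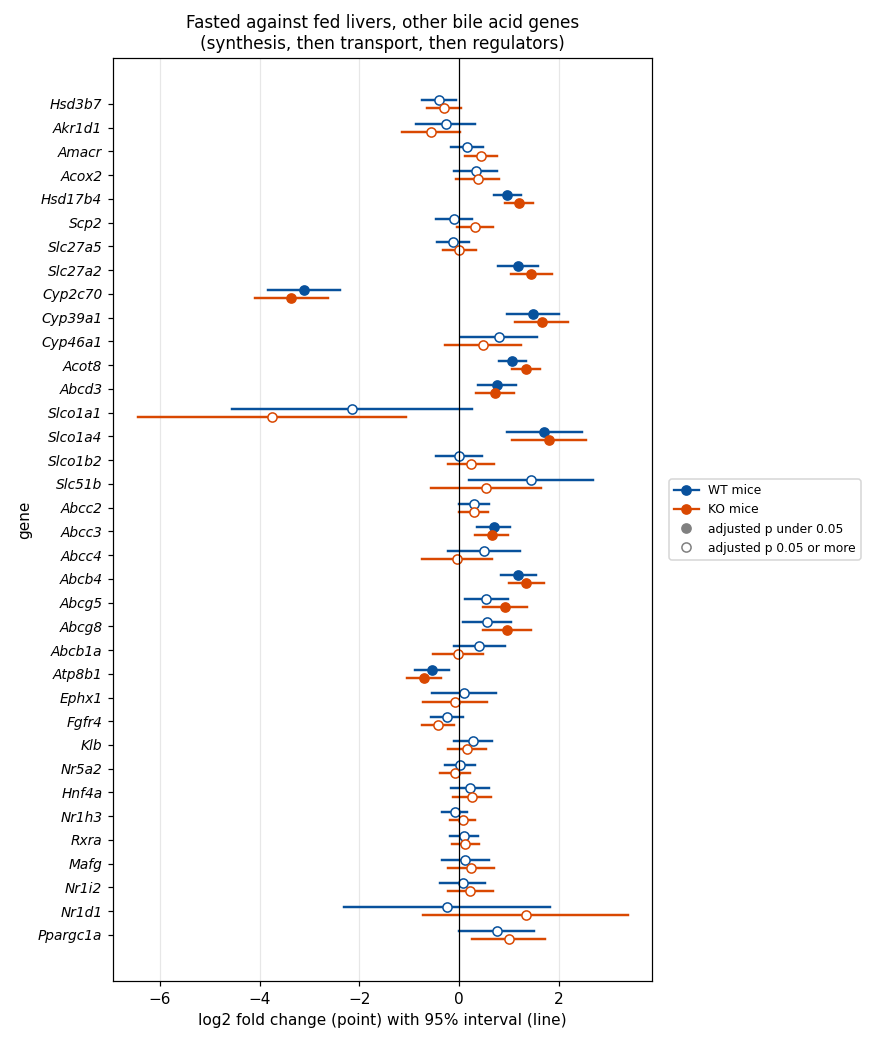
Log2 fold change (x axis, with 95% intervals from edgeR) of fasted against fed livers for the 36 tested genes of the 3 further lists, in WT-labelled (blue) and KO-labelled (orange) mice, with filled points at an adjusted *p* under 0.05. *Cyp2c70* lies farthest below 0 among the filled points (−3.11 and −3.36), *Slco1a4* farthest above (1.71 and 1.81).

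The second question was whether the genotype label made a difference. None of the 10 genes passed in fed mice, in fasted mice or in the difference between their fasting changes, and 0% of all tested genes did (0 of 13812 by edgeR in each). At an unadjusted *p* under 0.05 there were 876, 685 and 663 genes, none of the 10 among them, and the Wald test of DESeq2 passed 12, 4 and 3 genes, again none of the 10. The counts at an unadjusted *p* depended on single mice. In fed mice the count was 1698 without mouse 319, 1356 without mouse 323 and 571 without mouse 257, and for the difference it was 1629 without mouse 319 and 432 without mouse 277. For several genes the intervals were narrow. *Abcb11* differed by −0.013 on the log2 scale in fed mice (95% interval −0.42 to 0.40) and by −0.029 in fasted mice (95% interval −0.44 to 0.38). *Baat* differed by 0.16 (95% interval −0.14 to 0.46) and 0.23 (95% interval −0.066 to 0.54). Its fasted KO-labelled mice lay just above the fasted WT-labelled ones (256.6 to 320.5 against 218.2 to 256.5 TMM-normalized CPM). That difference did not pass (edgeR adjusted *p* = 0.917), and the share of all tested genes that separate so was not computed. *Nr1h4* differed by −0.087 (95% interval −0.43 to 0.26) in fed and −0.21 (95% interval −0.55 to 0.13) in fasted mice.

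For the regulated synthesis enzymes the intervals were wide. *Cyp7a1* differed by 1.89 in fed mice (95% interval −0.53 to 4.31) and by −0.84 in fasted mice (95% interval −3.20 to 1.52), and the difference of its fasting changes was −2.73 (95% interval −6.10 to 0.64, edgeR adjusted *p* = 0.897). Without mouse 303 these were 0.10, −0.84 and −0.94. *Cyp8b1* differed by 0.46 (95% interval −0.35 to 1.27) in fed and 0.33 (95% interval −0.48 to 1.13) in fasted mice. Its fasted KO-labelled mice lay above the fasted WT-labelled ones (954 to 1227 against 767 to 901 TMM-normalized CPM). Here too the difference did not pass (edgeR adjusted *p* = 0.939), and the share of all genes that separate so was not computed. *Cyp7b1* gave −0.61 (95% interval −1.26 to 0.042) in fed and 0.052 (95% interval −0.61 to 0.71) in fasted mice. The fasting responses of *Abcb11* and *Cyp8b1* differed between the genotypes by −0.016 (95% interval −0.60 to 0.57) and −0.13 (95% interval −1.27 to 1.01). Those of *Cyp7b1* and *Nr1h4*, which passed in WT-labelled mice and not in KO-labelled mice, differed by 0.66 (95% interval −0.27 to 1.58) and −0.12 (95% interval −0.61 to 0.36), with edgeR adjusted *p* values of 0.897 and 0.959, so neither response was shown to differ between the genotypes.

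**Figure D4:**
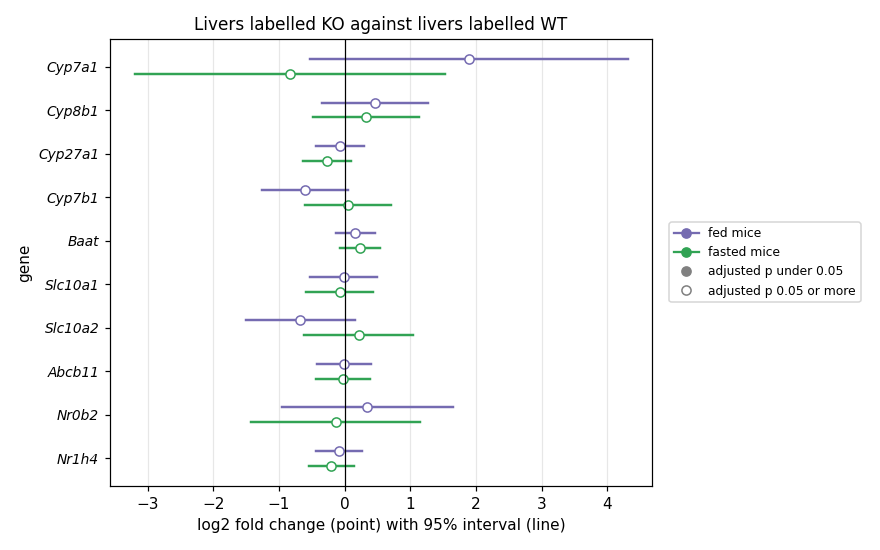
Log2 fold change (x axis, with 95% intervals from edgeR) of KO-labelled against WT-labelled livers for the 10 bile acid genes in fed (purple) and fasted (green) mice. All points are open (adjusted *p* of 0.05 or more), and the intervals of *Cyp7a1* (−0.53 to 4.31 fed, −3.20 to 1.52 fasted) are the widest.

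The third question was whether the repressor and its targets went together from mouse to mouse. Relations were computed on log2 CPM among the 6 fed and among the 6 fasted mice separately, 6 relations in all, with two-sided exact permutation tests. Between *Nr0b2* and *Cyp7a1*, Pearson's *r* was −0.77 in fed mice (exact permutation *p* = 0.075, adjusted 0.253) and −0.73 in fasted mice (exact permutation *p* = 0.125, adjusted 0.253). Spearman's coefficient was −0.37 (exact permutation *p* = 0.497, adjusted 0.746) and −0.54 (exact permutation *p* = 0.297, adjusted 0.594). The relation rested on the 2 mice farthest from the median of *Nr0b2*, which were the lowest and the highest of the fed mice and the lowest pair of the fasted mice. Without mice 303 and 319, *r* was 0.029 in the fed mice, and without mice 282 and 290 it was 0.67 in the fasted mice.

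*Cyp7a1* and *Cyp8b1*, which share SHP as a known repressor, had *r* = 0.69 (exact permutation *p* = 0.126, adjusted 0.253) and a Spearman coefficient of 0.77 (exact permutation *p* = 0.103, adjusted 0.594) in fed mice. In fasted mice *r* was 0.13 (exact permutation *p* = 0.828, adjusted 0.828) and Spearman's coefficient −0.029 (exact permutation *p* = 1.0, adjusted 1.0). Without the mice farthest from the median, *r* was 0.89 among the fed and 0.44 among the fasted mice. For *Nr0b2* and *Cyp8b1*, *r* was −0.17 in fed (exact permutation *p* = 0.776, adjusted 0.828) and −0.61 in fasted mice (exact permutation *p* = 0.218, adjusted 0.327). Spearman's coefficient for this pair was 0.086 and −0.60 (exact permutation *p* = 0.919 and 0.242, adjusted 1.0 and 0.594), and *r* without the mice farthest from the median was 0.48 and −0.37. None of the 6 relations passed after adjustment on these values.

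Genotype groups are mixed within each feeding state, and centring the values by group changed the picture. For *Cyp7a1* and *Cyp8b1* in fasted mice *r* became 0.94 and passed over all pairings of the mice (exact permutation *p* = 0.00417, adjusted 0.025), while in fed mice it was 0.63 (exact permutation *p* = 0.16, adjusted 0.192). For *Nr0b2* and *Cyp7a1*, *r* became −0.89 in fed (exact permutation *p* = 0.0222, adjusted 0.0667) and −0.92 in fasted mice (exact permutation *p* = 0.05, adjusted 0.075). *Nr0b2* and *Cyp8b1* gave −0.21 in fed (exact permutation *p* = 0.706, adjusted 0.706) and −0.82 in fasted mice (exact permutation *p* = 0.05, adjusted 0.075). Centred values of a group sum to 0, so that mice cannot be exchanged freely between groups. With mice exchanged only within their group, a test added after seeing the data, *Cyp7a1* and *Cyp8b1* in fasted mice had an exact permutation *p* of 0.0278, the smallest that the 36 pairings can give (adjusted 0.167). *Nr0b2* and *Cyp7a1* then had exact permutation *p* values of 0.167 in fed and 0.0833 in fasted mice (adjusted 0.233 and 0.167). Of the 6 relations 0 passed after adjustment, with 1 under 0.05 before it. A single relation at the smallest possible *p* cannot pass once adjusted over 6 relations. The lack of a pass was therefore nearly fixed by the 36 pairings and decides nothing about these relations.

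**Figure D5:**
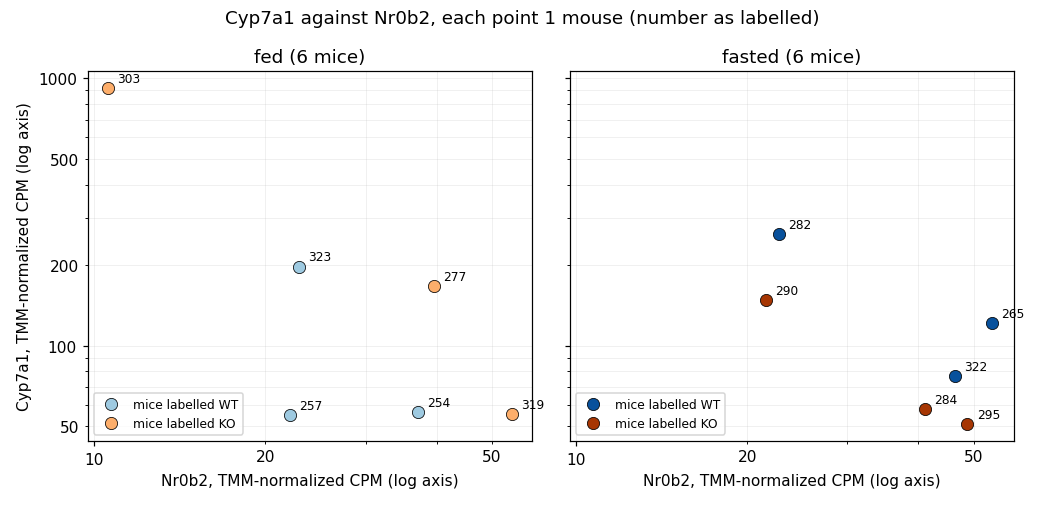
*Cyp7a1* (y axis) against *Nr0b2* (x axis), both as TMM-normalized CPM on log axes, with 1 point per mouse and the mouse number beside it, fed mice on the left and fasted mice on the right. Mouse 303 (10.6 for *Nr0b2*, 921 for *Cyp7a1*) sits at the upper left of the fed panel, and *Cyp7a1* ranged from 55.1 to 197 among the other 5 fed mice.

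Among all tested genes, those with log2 CPM most like *Cyp8b1* over the 12 mice were *Gpcpd1* (Pearson's *r* = 0.98), *Lgals8* (0.98) and *Dennd4a* (0.97). Those most like *Cyp7a1* were *Alkbh8* (0.95), *Wdhd1* (0.90) and *Rock1* (0.89), and those most like *Nr0b2* were *Klf11* (0.91) and *Ighmbp2* (0.87). These are descriptions over 12 mice that share feeding states.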

How the data were processed

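Total RNA of 12 mouse livers was sequenced. The authors deposited 1 table of expected counts (RSEM, after Trimmomatic, on GRCm38, per the submitters' processing notes), not scaled between mice. Their versions and the strand setting are not given in the sources used here. Expected counts were rounded. In R 4.3.3, edgeR 4.0.16 kept 13812 of 48795 genes (filterByExpr), normalized with TMM and fitted 1 mean per group over all 12 mice with robust quasi-likelihood tests. Adjusted *p* values are Benjamini-Hochberg over all tested genes. The study's methods state no test for single genes. Simulated data were used to check the steps. Levels per kilobase use the longest transcript of GENCODE vM39, and correlations use a prior count of 2. Depth of 21999647 to 45273069 counts sets the precision, and floors cover counting error only.

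The genes, lists and motifs were chosen with earlier results of these data known. All 10 genes are named in every comparison, along with up to 3 genes per further list and direction with the smallest *p* and the 3 genes most like *Cyp7a1*, *Cyp8b1* and *Nr0b2*, of which 1 is not reported here. As alternatives, each mouse was left out, the fit was limited to the groups compared, the threshold was moved to 0.10 or joined to a minimum log2 change of 1, low counts were kept, RLE or upper quartile factors replaced TMM, DESeq2 1.42.0 (Wald) replaced edgeR and, added after seeing the data, 1 fasting change for both genotypes and a permutation test within groups for the centred correlations.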

Additional observations from a re-analysis of the deposited data

How the results depend on the processing

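The calls of *Abcb11* and *Cyp8b1* on fasting held in both genotypes under every alternative run, and no alternative passed any of the 10 genes between genotypes. With 1 mouse left out at a time, fasting passed 1224 to 2770 genes in WT-labelled mice (1326 without mouse 254, 1596 without 257, 1224 without 282), of which 2 to 4 bile acid genes (2 without mouse 254, 323, 265 or 282). In KO-labelled mice it passed 1358 to 2631 genes (1358 without mouse 277, 1523 without 284, 1365 without 290). The genotype comparison then passed 0 to 2 genes in fed mice (2 without mouse 323 or 319) and the difference of fasting changes 0 to 1 (1 without mouse 323). Requiring a log2 change of 1 or more left 911 and 915 genes on fasting. The model with 1 fasting change for both genotypes passed 4519 genes, 4 of the 10 among them, and 1 gene between genotypes, and it gives no difference of fasting changes. With no count filter 1 gene passed between genotypes in fed mice, and with only the groups compared 1 in fasted mice. DESeq2 passed 12 genes in fed mice, 4 in fasted mice and 3 for the difference. The cause was not tested.

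Directions that turned belonged to values that did not pass the test. With 1 fasting change for both genotypes, the log2 fold change on fasting was −0.79 for *Cyp7a1*, −0.32 for *Slc10a2* and −0.012 for *Baat*. The 1 genotype difference of that model, shared by fed and fasted mice, was −0.24 for *Slc10a2*, 0.53 for *Cyp7a1*, 0.10 for *Nr0b2* and −0.28 for *Cyp7b1*. Each of these was opposite in sign to the difference in fasted mice alone. Upper quartile normalization turned *Baat* on fasting in KO-labelled mice to −0.0085. Leaving out 1 mouse at a time, the fasting change ranged from −0.056 to 1.46 for *Cyp7a1* and −0.13 to 0.082 for *Baat* in WT-labelled mice, and from −0.43 to 0.43 for *Slc10a2*, −0.32 to 0.56 for *Nr0b2* and −0.073 to 0.094 for *Baat* in KO-labelled mice. Between genotypes in fed mice it ranged from −0.26 to 0.25 for *Slc10a1*, −0.27 to 0.030 for *Cyp27a1*, −0.074 to 0.092 for *Abcb11*, −0.12 to 0.78 for *Nr0b2* and −0.18 to 0.035 for *Nr1h4*. In fasted mice it ranged from −0.26 to 0.016 for *Slc10a1*, −0.36 to 0.51 for *Slc10a2*, −0.27 to 0.14 for *Abcb11*, −0.42 to 0.13 for *Nr0b2* and −0.042 to 0.21 for *Cyp7b1*. The difference of fasting changes ranged from −0.33 to 0.19 for *Slc10a1*, −0.36 to 0.0028 for *Cyp27a1*, −0.25 to 0.15 for *Abcb11*, −0.054 to 0.16 for *Baat* and −0.59 to 0.18 for *Cyp8b1*. The correlation of *Nr0b2* with *Cyp7a1* became 0.029 in fed and 0.67 in fasted mice without the 2 mice farthest from the median, and −0.89 in fed mice when centred by group. That of *Nr0b2* with *Cyp8b1* in fed mice became 0.48, and that of *Cyp7a1* with *Cyp8b1* 0.89 in fed mice without those mice and 0.94 in fasted mice when centred by group. With mice exchanged only within groups, this 0.94 had an exact permutation *p* of 0.0278, the smallest that the 36 pairings can give. It did not pass after adjustment (0.167), which a single relation at that smallest value cannot do. No paired analysis was possible because the labels give no litter for the mice, so the tests leave out any likeness between littermates. Changes of *Cyp7a1* inside its 95% intervals on fasting (log2 −1.78 to 2.92 in WT-labelled and −4.60 to 0.29 in KO-labelled mice) could not be told from 0 with 3 mice per group.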

Other observations

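The genes below belong to the further lists and were named after their values were seen. *Slco1a1*, a basolateral organic anion transporter, had 110, 37.1 and 196 TMM-normalized CPM in fed and 18.5, 4.86 and 53.3 in fasted WT-labelled mice. In KO-labelled mice it had 91.7, 18.2 and 24.2 when fed and 5.82, 3.42 and 1.09 when fasted. The fasted KO-labelled mice all lay below the fed ones, but the spread within groups was wide and neither change passed (log2 fold changes −2.15 and −3.76, edgeR adjusted *p* = 0.198 and 0.0626). Its relative *Slco1a4* was higher on fasting in the same livers, as given above.

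*Slc51b*, the beta subunit of the basolateral bile acid exporter, had 3 to 25 counts per mouse, and *Slc51a*, the alpha subunit, at most 1 count. *Ch25h* had at most 3 counts and *Gpbar1*, a bile acid receptor of the cell surface, at most 1. *Slc51a*, *Ch25h*, *Gpbar1* and *Fgf15* were the genes of the further lists with too few counts to test.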
